A study of Zea mays with 109 samples.

Results

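Sugar export from leaves and sugar unloading into the kernel were followed through 6 maize genes, 4 of the leaf side and 2 of the kernel side, over all tissues of the inbred line B73 with measured total RNA or ribosome-bound RNA. The genes were fixed by name and gene model as the sucrose transporter sut1 (Zm00001d027854), the sucrose exporters sweet13a (Zm00001d023677), sweet13b (Zm00001d023673) and sweet13c (Zm00001d041067), the hexose transporter sweet4c (Zm00001d015912) and the cell wall invertase mn1 (Zm00001d003776). All 6 were found among the 37069 gene models of the total RNA table and among the 39324 gene models of the ribosome-bound table. Total RNA was measured in 26 libraries, from 11 leaf and 6 inflorescence tissues, 3 stages of the shoot apical meristem (SAM), 2 primary roots, a stem and an internode, and 2 kernel tissues, embryo and endosperm. Ribosome-bound RNA, the RNA recovered with ribosomes, was measured in 20 of these tissues, namely 8 leaves, 4 inflorescences, 2 roots, 2 stem tissues, 2 SAM stages and the embryo and endosperm.

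The groups had the same genotype and were grown in a greenhouse at 25 °C with 12 h of light and 12 h of dark, without a special treatment. Each library was a pool, in equal parts, of the RNA of 3 replicates with 5 to 10 plants in each. A tissue therefore had no replicate library, and the p-values below reflect how different tissues vary. In tests of leaf against a single organ class, this is the spread of tissues within a class. In tests of leaf against all other organs, those organs formed a single group, so the spread includes differences between organs. In both kinds of test, libraries from the same leaf position, or from the tip and base of a leaf, counted as separate leaves. Leaves came from stages V3 and V5 and from the husk and ear positions, and the embryo and endosperm from the kernel stage R2. A leaf was treated as a source and every other organ as a sink, a division set by the comparison and not by the labels, and the husk leaf, an organ that encloses the ear, and the base of a young leaf were counted with the leaves.

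In maize leaves, sucrose made by photosynthesis leaves the cells near the vein through SWEET exporters, which let sucrose pass down its gradient into the cell wall space. The proton-coupled symporter SUT1 then draws it from there into the phloem, the tissue that carries sugar to roots, growing tips and kernels. At the base of the kernel the invertase MN1, bound to the cell wall, cleaves arriving sucrose to glucose and fructose, and SWEET4c moves these hexoses into the transfer cells that feed the endosperm. The sweet13 copies are close relatives, so the split of reads among them is uncertain wherever a single copy is given.

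Values were TPM, a count of transcripts scaled by gene length and by library. Their read depth is unknown, and an exact 0 is given as listed at 0. The listed total RNA entries summed to 159407 to 395863 TPM per library, and the ribosome-bound entries to 999999 to 1000001 TPM. A single entry, Zm00001d000417, held 9.57% to 37.7% of the listed total RNA TPM of the leaves, and Zm00001d019605 held up to 62.5% of the ribosome-bound TPM of a leaf library but 0.121% in the husk leaf and 1.77% in the base of the stage 2 leaf. These entries lower all others in the same library. No pair of libraries held identical values (0 pairs). The files do not pair gene models with names, so organ markers could not be checked and the other genes of sucrose transport and cleavage were not measured. In a bulk tissue, fewer cells of a type and less RNA per cell cannot be told apart.

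The leaf-side genes were highest in leaves and the kernel-side genes in the kernel, in both kinds of RNA. In total RNA, sut1 was listed at 11.8 TPM in its lowest leaf, the husk leaf, at a leaf median of 19.3 TPM and at 39.8 TPM in its highest, the tip of the stage 2 leaf with the letter L. Among the sinks it was at 4.11 TPM in the internode and 1.57 TPM in the stem, 1.92 and 1.27 TPM in the primary roots at 6 days after sowing (DAS) and at V1, 2.93 TPM in the embryo and 0.88 TPM in the endosperm. Every leaf lay above every sink. In SAM, sut1 was at 0.40 TPM at V1 and at 0.09 TPM at V3 and at V4, and the 6 inflorescence libraries reached from 0.02 to 0.13 TPM. In level, a leaf mean of 22.4 ± 9.64 TPM (SD, n = 11) placed sut1 above 97.4% of the gene models of a leaf library on average, against 54.5% in the 15 sinks.

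**Figure D1:**
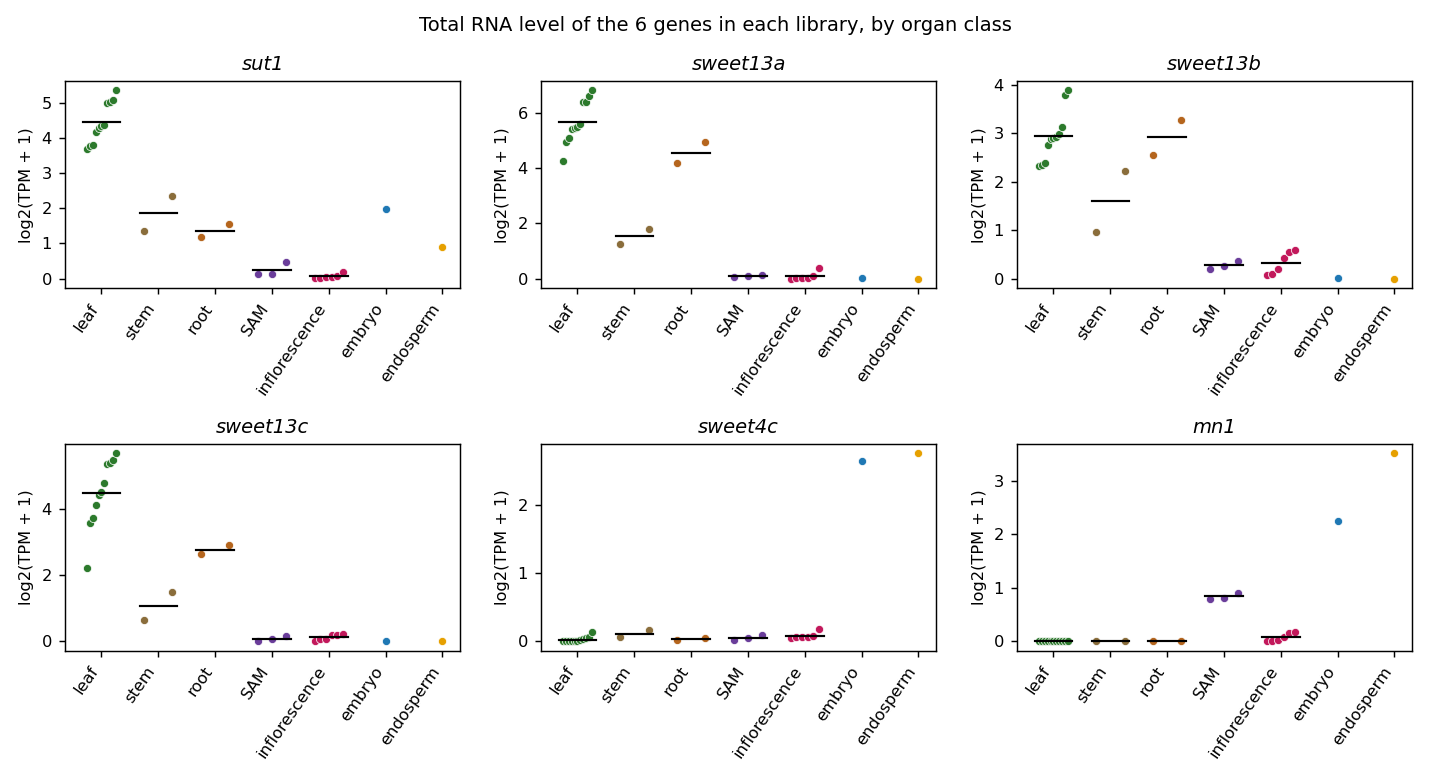
Total RNA level of each gene, as log2(TPM + 1) on the vertical axis, with 1 point per library and a black line at the mean of each class of at least 2 libraries. The vertical scales differ between genes; the 11 leaves lead for sut1, and the embryo (5.23 TPM) and endosperm (5.77 TPM) stand above all other libraries for sweet4c.

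In total RNA the sucrose exporter sweet13a was the highest of the 6 genes in every leaf. It was at 18.2 TPM in the husk leaf, 44.1 TPM at the leaf median and 112 TPM in the first leaf with the letter L, with a leaf mean of 57.4 ± 30.8 TPM (SD, n = 11). The roots came next, with 17.1 TPM at 6 DAS and 29.7 TPM at V1, the V1 root being the only sink as high as any leaf. The stem had 1.37 TPM and the internode 2.50 TPM. Levels in the meristems, the inflorescences and the kernel were far lower, from 0.04 to 0.10 TPM in SAM, from listed at 0 to 0.29 TPM in inflorescence, 0.02 TPM in the embryo and listed at 0 in the endosperm.

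The other copies also had their highest class means in leaf, then root, then stem, at lower leaf and root levels than sweet13a. Below these classes the order of organs differed between the copies, at values of at most 0.50 TPM. Total RNA of sweet13c was at 3.67 TPM in the husk leaf, 21.5 TPM at the leaf median and 50.2 TPM in the tip of the stage 2 leaf with the letter N, against 6.56 and 5.15 TPM in the roots at 6 DAS and V1, 1.82 TPM in the internode and at most 0.56 TPM in every other sink. For sweet13b the leaves had 4.01 TPM at the lowest, 6.45 TPM at the median and 13.7 TPM at the highest, and the roots had 8.67 and 4.87 TPM. Both roots fell within the leaf range of sweet13b and of sweet13c. For sweet13c only 1 of the 11 leaves, the husk leaf, lay below the 6 DAS root, whereas for sweet13b 9 of the 11 leaves did. The class means of sweet13b were 7.14 ± 3.28 TPM (SD, n = 11) in leaf and 6.77 TPM in the 2 roots, neighbours in the order of organs whose ranges overlapped.

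In ribosome-bound RNA leaf again had the highest class mean of the 4 leaf-side genes, while the order of the sinks was not that of total RNA for any of them. For the sweet13 copies root and then stem still led the sinks, and the order changed below them. For sut1 the leaves had 243 TPM in the ear leaf, 555 TPM at the median and 1155 TPM in the base of the stage 2 leaf, and the highest sink, the internode, had 102 TPM. The stem was at 74.6 TPM, the roots at 42.3 and 23.2 TPM, the embryo at 32.4 TPM, the endosperm at 8.77 TPM, the inflorescences at 1.61 to 13.5 TPM and the SAM libraries at 1.39 and 1.55 TPM. No sink reached the lowest leaf.

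Ribosome-bound sweet13a was at 163 TPM in the topmost leaf, 541 TPM at the leaf median and 1467 TPM in the first leaf with the letter N, against 121 and 267 TPM in the roots, 34.0 TPM in the stem, 29.4 TPM in the internode and at most 8.00 TPM elsewhere. The V1 root lay above 3 of the 8 leaves. For sweet13b the leaf range was 36.8 to 205 TPM with a median of 79.0 TPM, and the roots had 73.5 and 43.3 TPM. For sweet13c the leaf range was 16.4 to 450 TPM with a median of 29.7 TPM, and both roots, at 39.5 and 33.9 TPM, lay above that median. Leaf and root levels of these 2 copies thus overlapped in ribosome-bound RNA as well.

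**Figure D2:**
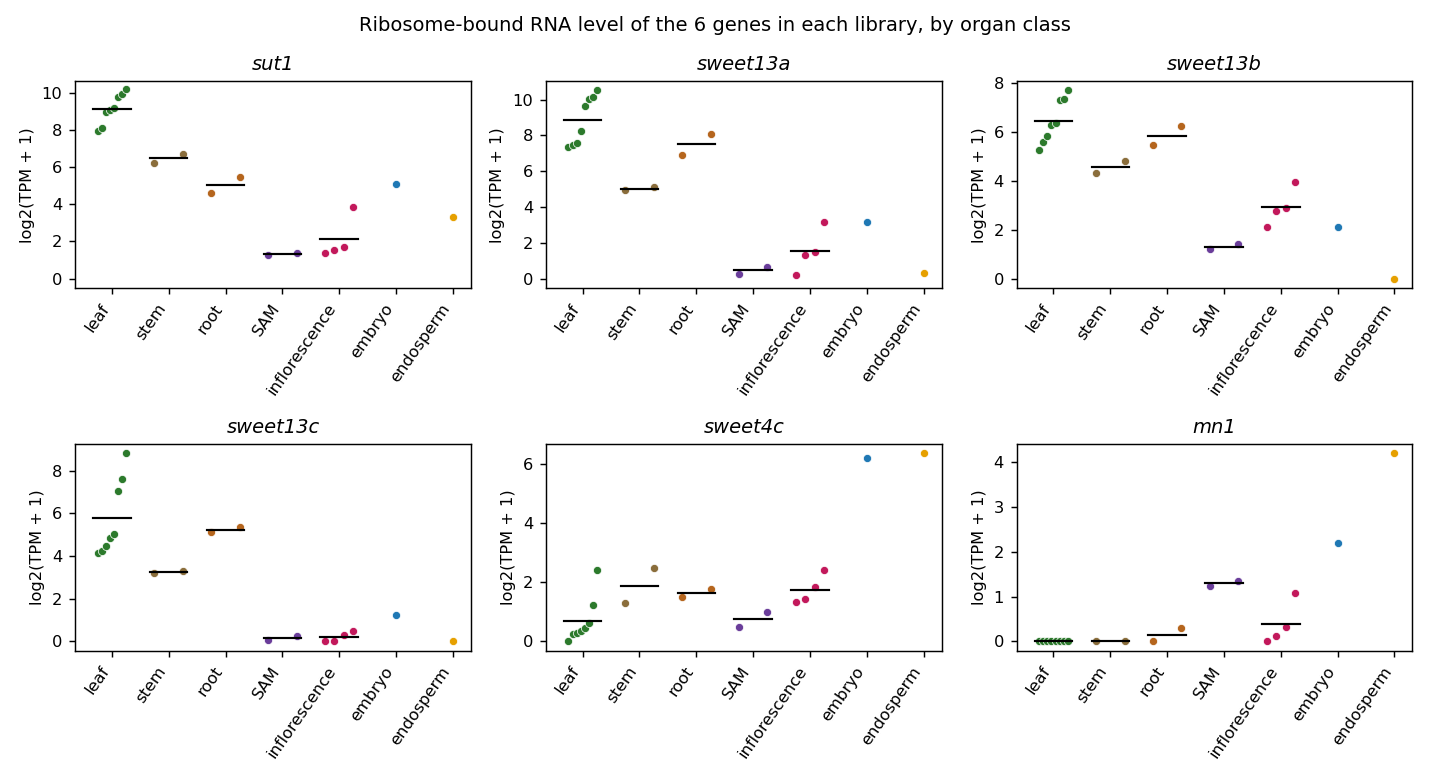
Ribosome-bound RNA level of each gene, as log2(TPM + 1) on the vertical axis, with 1 point per library and a black line at the mean of each class of at least 2 libraries. The 8 leaves of sut1 start at 243 TPM, above the internode at 102 TPM, whereas the V1 root for sweet13a, at 267 TPM, and both roots for sweet13b and sweet13c fall within the leaf range.

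Leaves were compared with all sinks by limma on log2(TPM + 1), fitted on every entry that reached 1 TPM in 2 or more libraries, and an entry was called at an adjusted p under 0.05 and a difference of at least 2-fold. In total RNA 4 of the 6 genes were called higher in leaf, beside 8.87% of all 24997 entries tested, and the median difference of all entries was -0.63 on the log2 scale. The log2 difference, leaf minus sinks, was 3.74 for sut1 (SE 0.277, adjusted p = 6.3e-12) and 4.81 for sweet13a (SE 0.491, adjusted p = 2.63e-09). It was 3.90 for sweet13c (SE 0.375, adjusted p = 9.67e-10) and 2.15 for sweet13b (SE 0.325, adjusted p = 1.58e-06). In the sum of the 3 sweet13 copies, which does not depend on how reads were split among them, the difference was 5.03 (adjusted p = 6.01e-09).

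In ribosome-bound RNA the same 4 genes were called higher in leaf, beside 9.64% of 25807 entries tested, whose median difference was -0.85. The log2 differences were 5.60 for sut1 (SE 0.702, adjusted p = 8.33e-07), 5.90 for sweet13a (SE 0.945, adjusted p = 1.59e-05), 3.35 for sweet13b (SE 0.657, adjusted p = 0.00015) and 4.17 for sweet13c (SE 0.813, adjusted p = 0.000142). The direction and the call of these 4 genes held in both kinds of RNA under every alternative run, including each library left out in turn. Over all entries the scaling mattered: of the called entries 21.03% were higher in leaf in total RNA and 18.4% in ribosome-bound RNA, and after quantile normalization 50.9% and 47.6%. Without the dominating leaf entry, and with the others rescaled, these shares were 32.8% and 34.2%.

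**Figure D3:**
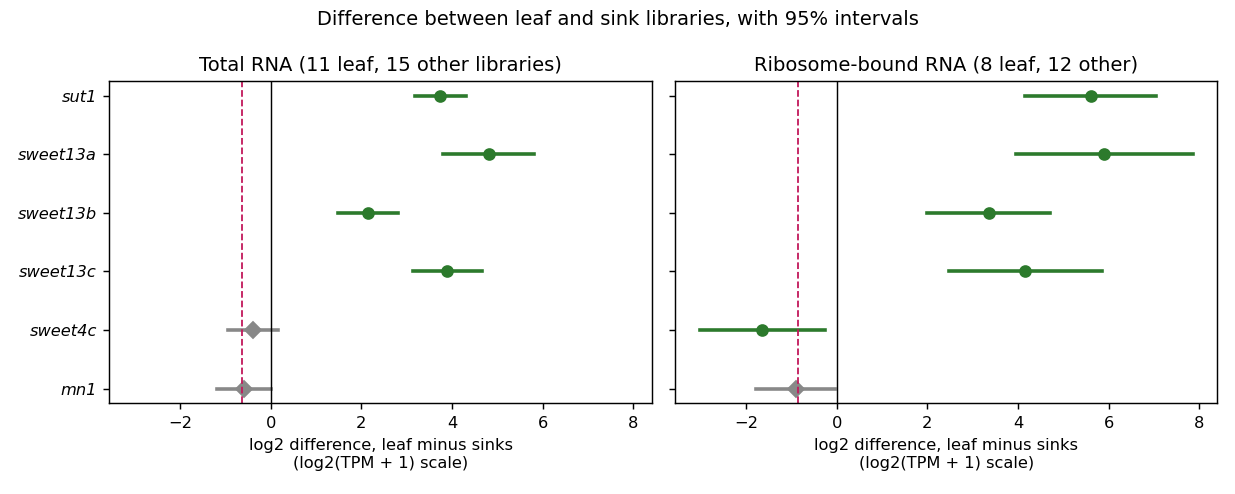
Log2 difference between leaf and sink libraries for each gene, on the log2(TPM + 1) scale, with points for the estimate and bars for the 95% interval; green circles were called and grey diamonds were not, and the dashed line is the median of all entries tested. The 4 leaf-side genes lie between 2.15 and 4.81 in total RNA, while the intervals of sweet4c and mn1 in total RNA reach past 0.

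Against single organ classes the leaf-side genes differed most from meristems and inflorescences, the exporters least from roots and sut1 least from the stem class. Against the 6 inflorescence libraries 10.5% of all total RNA entries were called higher in leaf, and the 4 genes had differences of 4.37 (sut1), 5.59 (sweet13a), 2.61 (sweet13b) and 4.35 (sweet13c). Against the 3 SAM libraries (9.43% of all entries higher in leaf) the differences were 4.19, 5.58, 2.66 and 4.40 in the same order. All 8 were called, as were the corresponding 8 in ribosome-bound RNA, where 11.5% of entries were higher in leaf than in inflorescence and 9.77% higher than in SAM. The ribosome-bound differences ran from 3.53 (sweet13b) to 7.33 (sweet13a) against inflorescence and from 5.15 (sweet13b) to 8.40 (sweet13a) against SAM. Against the stem class (7.92% higher in leaf in total RNA) all 4 genes were called, with sut1 at 2.58, sweet13a at 4.15, sweet13c at 3.41 and sweet13b at 1.34 (adjusted p = 0.00467). The sweet13b call rested on the stem library, without which the difference was 0.72 (adjusted p = 0.227). In ribosome-bound RNA (6.26% higher in leaf than in stem) all 4 were also called, at 2.67, 3.84, 1.89 and 2.52 in the order of the first list, and the calls of sweet13b and sweet13c were lost when either stem library was left out. Without the internode the differences were 1.63 for sweet13b (adjusted p = 0.146) and 2.58 for sweet13c (adjusted p = 0.155), and without the stem library 2.15 (adjusted p = 0.0581) and 2.47 (adjusted p = 0.159). The sweet13c call also ended without the tip of the stage 2 leaf (2.34, adjusted p = 0.0541).

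Roots had the highest sink levels of the exporters but not of sut1. In total RNA, where 6.27% of entries were called higher in leaf than in root, sut1 was higher in leaf by 3.07 on the log2 scale (adjusted p = 3.36e-07). The difference was 1.12 for sweet13a (adjusted p = 0.0396) and 1.70 for sweet13c (adjusted p = 0.015), and both calls were lost when either root was left out. Without the 6 DAS root the differences were 0.74 for sweet13a (adjusted p = 0.384) and 1.85 for sweet13c (adjusted p = 0.0828), and without the V1 root 1.502 (adjusted p = 0.0603) and 1.56 (adjusted p = 0.126). The sweet13a call also ended without either tip library of the stage 2 leaf, the higher adjusted p being 0.0535, and with a pseudocount of 0.1 (adjusted p = 0.0714). For sweet13b the difference was 0.02 with a 95% interval of -0.71 to 0.75. In ribosome-bound RNA, with 6.27% called here too, sut1 alone was called, at 4.11 (adjusted p = 7.84e-05). There sweet13a was at 1.37 (interval -0.46 to 3.20, adjusted p = 0.197), sweet13b at 0.61 and sweet13c at 0.54. These root results moved with the scaling: after quantile normalization sweet13a (2.33, adjusted p = 0.00673) and sweet13b (1.70, adjusted p = 0.00607) were called in ribosome-bound RNA as well. The summed sweet13 TPM was 4.04 ± 1.10 times the sut1 TPM in the total RNA of leaves (SD, n = 11) but 16.8 and 31.3 times in the roots at 6 DAS and V1, the 2 highest ratios of the leaf, stem and root libraries.

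The 3 sweet13 copies took different shares in different organs. In leaf total RNA sweet13a made up 63.0% ± 8.34 of the summed sweet13 TPM, sweet13c 27.7% ± 10.2 and sweet13b 9.25% ± 4.42 (SD, n = 11). In leaf ribosome-bound RNA the shares were 73.6% ± 6.84 for sweet13a, 16.5% ± 9.40 for sweet13b and 9.82% ± 6.08 for sweet13c (SD, n = 8), so the mean shares of sweet13b and sweet13c changed places. These means cover different leaves: the base, tip and topmost leaf with N, at 35.9% to 45.5% sweet13c in total RNA, had no ribosome-bound library. In ribosome-bound RNA sweet13c still led sweet13b in the base with L (13.7% against 11.5%) and the first leaf with N (22.8% against 2.80%). In the husk leaf sweet13b already led in total RNA (16.2% against 14.1%). In the remaining leaves with both kinds of RNA the 2 copies changed places. In the total RNA of the stem and the internode sweet13b held 33.2% and 45.7% of the sum, above its highest leaf share of 16.2%. The shares within a library do not depend on its scaling, but they do depend on how the authors' counting split reads among the copies.

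**Figure D4:**
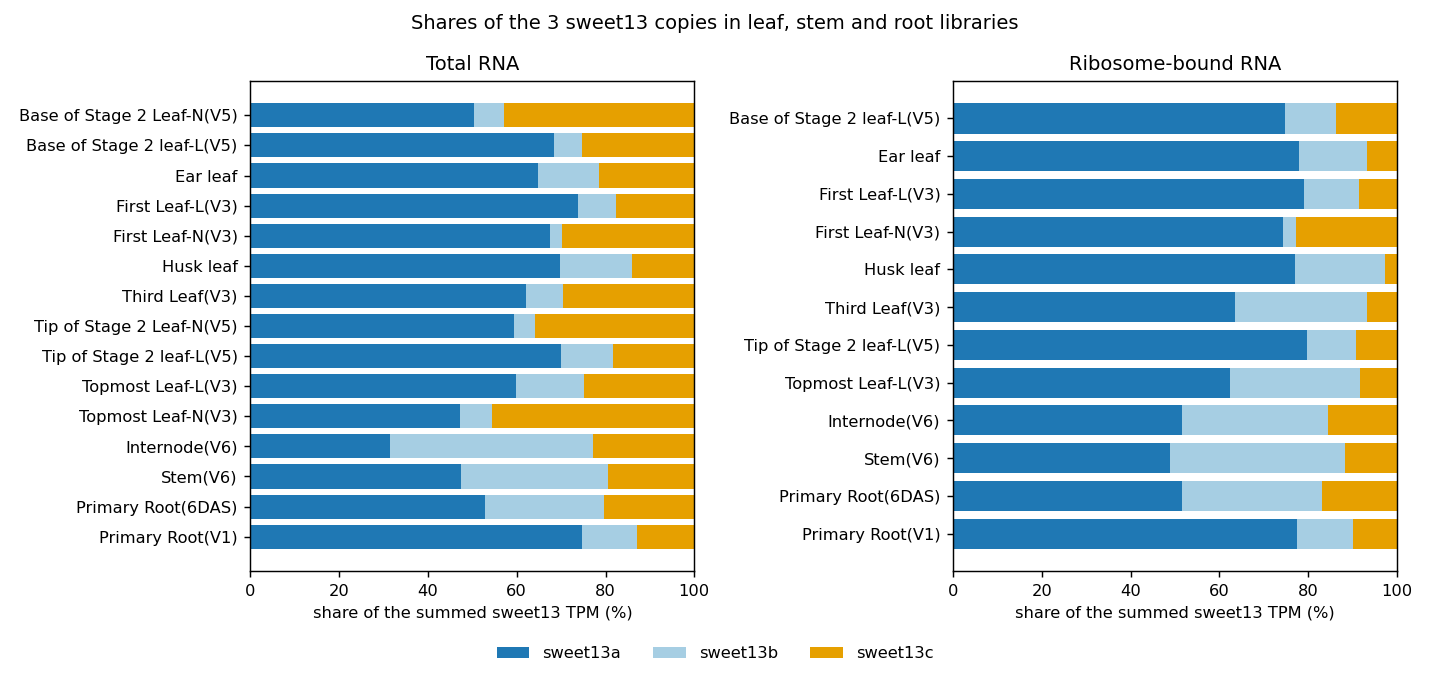
Share of each sweet13 copy in the summed sweet13 TPM (horizontal axis, percent) in each leaf, stem and root library, for total RNA on the left and ribosome-bound RNA on the right. The sweet13c share reaches 45.5% in the total RNA of the topmost leaf with the letter N, and sweet13b takes its largest shares in the stem and internode.

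Leaf libraries with the letters L and N, whose meaning the labels do not give, were compared at 4 leaf positions with the position as a block. Of the 4 leaf-side genes, sweet13c was called, lower in L, beside 3.21% of 16238 entries called lower in L. Its total RNA was 26.5 TPM in L and 43.1 TPM in N in the first leaf, 12.3 and 40.1 TPM in the topmost leaf, 21.5 and 50.2 TPM in the tip and 16.4 and 40.8 TPM in the base of the stage 2 leaf. The N library was higher at 4 of 4 positions, by 1.63 to 3.26 times, a log2 difference L minus N of -1.19 (SE 0.185, adjusted p = 0.0106). Without the block the adjusted p was 0.0693, and without the filter on low values 0.0766. The share of sweet13c among the copies was 17.6% to 25.4% in the 4 L libraries and 29.7% to 45.5% in the 4 N libraries, without overlap.

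The other leaf-side genes were not called between the letters. The log2 difference was -0.01 for sut1 (95% interval -0.46 to 0.45), -0.10 for sweet13a (interval -0.51 to 0.30) and 0.53 for sweet13b (interval -0.26 to 1.33). The first leaf was the only position with both letters in ribosome-bound RNA, so values there have no test. In that pair sweet13c was at 32.1 TPM in L and 450 TPM in N, 14.03 times as high, and sweet13a at 298 and 1467 TPM, 4.92 times as high. For sut1 the values were 574 and 985 TPM, and for sweet13b 46.9 and 55.2 TPM. The entry Zm00001d019605 held 61.1% of the L library and 38.5% of the N library; with it left out and the rest rescaled, sweet13c was at 82.3 and 732 TPM, sweet13a at 766 and 2386 TPM and sut1 at 1473 and 1602 TPM. For sweet13b the order of the letters turned under this rescaling, with 120.4 TPM in L and 89.7 TPM in N.

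**Figure D5:**
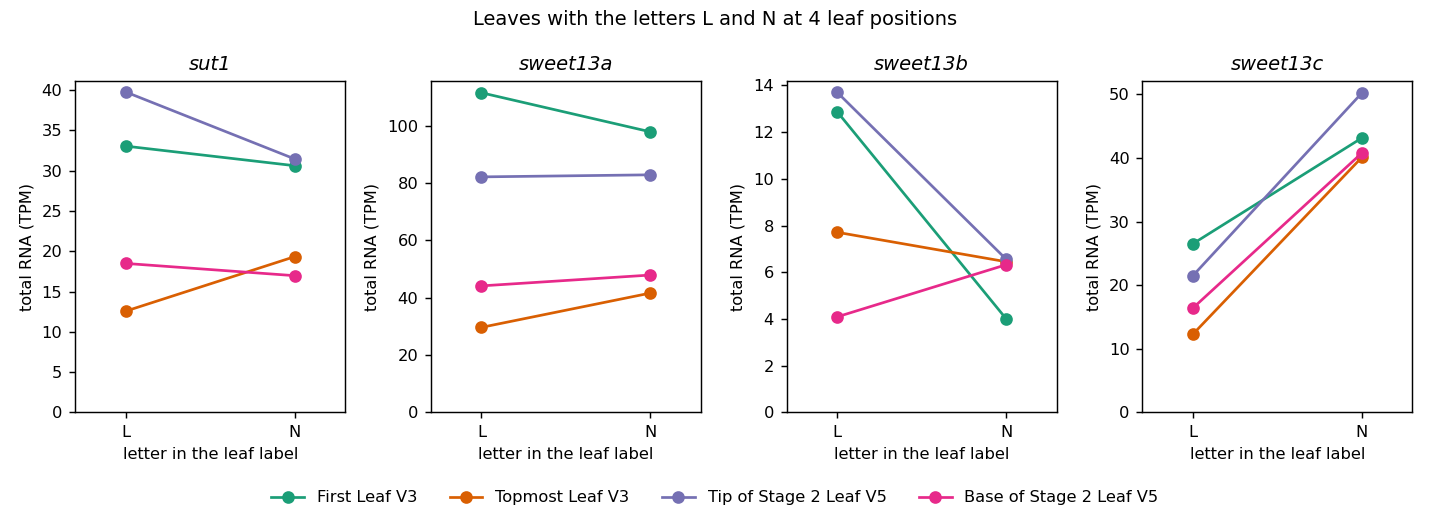
Total RNA TPM of the 4 leaf-side genes in leaves with the letters L and N, with a line joining the 2 libraries of each leaf position; the vertical axes start at 0 and differ between genes. All 4 lines of sweet13c rise from L to N, by 1.63 to 3.26 times, and the lines of sut1 do not share a direction.

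Within the stage 2 leaf, tips were compared with bases in the same 8 libraries. Total RNA of sut1 was 39.8 and 31.5 TPM in the tips with L and N, against 18.5 and 16.97 TPM in the bases. Both tips were above both bases, as they were for sweet13a, with 82.2 and 82.9 TPM in the tips and 44.1 and 47.9 TPM in the bases. The same held for sweet13b, with 13.7 and 6.56 TPM in the tips and 4.09 and 6.32 TPM in the bases. For sweet13c the tip with L, at 21.5 TPM, lay below the base with N, at 40.8 TPM. The share of all entries with both tips above both bases was not counted. The log2 difference, tip minus base, was 0.96 for sut1 (95% interval 0.32 to 1.60, adjusted p = 0.0997) and 0.83 for sweet13a (adjusted p = 0.107). The differences were 0.79 for sweet13b (adjusted p = 0.322) and 0.33 for sweet13c (adjusted p = 0.447). By limma 0 of the 4 genes were called, beside 1.02% of all entries called higher in the tip. The unadjusted limma p was 0.0107 for sut1 and 0.0126 for sweet13a. The share of all entries with an unadjusted p that low was not counted, so these values are no support for a difference. In ribosome-bound RNA, with a single tip and a single base, sut1 was at 866 TPM in the tip and 1155 TPM in the base, and sweet13a at 1134 and 1055 TPM. Zm00001d019605 held 27.8% of that tip library and 1.77% of the base. With it left out and the rest rescaled, sut1 was at 1199 TPM in the tip and 1176 TPM in the base, so its direction turned, and sweet13a was at 1570 and 1074 TPM.

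The kernel-side genes each had their highest levels in the endosperm and embryo, in both kinds of RNA. Total RNA of sweet4c was 5.77 TPM in the endosperm and 5.23 TPM in the embryo, at most 0.13 TPM in the other 24 libraries, and listed at 0 in 6 of the 11 leaves. The endosperm had 44.4 times the highest value outside the kernel, in the 2mm Tassel, and 1.10 times the embryo. Ribosome-bound sweet4c was 80.9 TPM in the endosperm and 72.5 TPM in the embryo, followed by the internode at 4.57 TPM, the husk leaf at 4.36 TPM and the 1cm Tassel at 4.27 TPM.

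Total RNA of mn1 was 10.4 TPM in the endosperm and 3.76 TPM in the embryo, a ratio of 2.78. The meristems followed, with 0.88 TPM at V1, 0.76 TPM at V3 and 0.74 TPM at V4, and mn1 was listed at 0 in 11 of 11 leaves and in both stem libraries. Ribosome-bound mn1 was 17.5 TPM in the endosperm and 3.58 TPM in the embryo, a ratio of 4.88, then 1.56 and 1.35 TPM in SAM at V4 and V3, and listed at 0 in 8 of 8 leaves. The endosperm therefore led the embryo for mn1 in both kinds of RNA, while for sweet4c the 2 kernel libraries were near each other. Each kernel tissue was a single library, so these differences have no replicate check.

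Both genes passed the total RNA filter through the embryo and endosperm alone, and their total RNA tests against leaf rest on those libraries. There neither was called, with a log2 difference, leaf minus sinks, of -0.40 for sweet4c (95% interval -0.94 to 0.15) and of -0.59 for mn1 (interval -1.18 to 0.01). In ribosome-bound RNA sweet4c was called lower in leaf at -1.64 (SE 0.664, adjusted p = 0.0368), beside 42.8% of all entries called lower there. That call was lost in 12 of 28 alternatives, among them quantile normalization (-0.99, adjusted p = 0.244) and leaving out the embryo (-1.29, adjusted p = 0.0512). It also ended without any 1 of 6 leaf libraries, the base and the tip of the stage 2 leaf, the first leaf with L or with N, the third leaf or the topmost leaf, with an adjusted p of at most 0.0675. Without the husk leaf, the leaf with the most ribosome-bound sweet4c, the gene was called lower in leaf against root (-1.17, adjusted p = 0.0135) and against stem (-1.43, adjusted p = 0.00382) as well. With all libraries limma called it against neither root (adjusted p = 0.146) nor stem (adjusted p = 0.0642). Leaving out the highest leaf lowers the leaf mean of the gene, so the calls without the husk leaf are no added support. Lower calls were common in the fit with all libraries: of 25807 entries tested, 11885 were called against root and 12714 against stem. Of these called entries 13.6% and 12.7% were higher in leaf. For mn1 the ribosome-bound difference from all sinks was -0.90 (adjusted p = 0.0679).

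Against SAM alone, ribosome-bound mn1 was called lower in leaf, by a log2 difference of -1.29 (adjusted p = 8.43e-05), beside 40.1% of all entries called lower in leaf than in SAM. In total RNA the difference was -0.84 (SE 0.0527, adjusted p = 2.6e-11), under the 2-fold limit on this scale. With a pseudocount of 0.1 the mn1 difference passed that limit in total RNA at -3.16. The difference kept its sign in every alternative run, but mn1 was listed at 0 in every leaf and above 0 in every SAM library. That sign is therefore no added support, and the small SE reflects leaves without spread. In ribosome-bound RNA mn1 passed the filter through sinks alone, SAM among them. Against inflorescence, ribosome-bound sweet4c was called lower in leaf at -1.05 (adjusted p = 0.0297; 46.1% of all entries were called lower), a call lost in 9 of 16 alternatives. It ended without the 1cm Tassel (-0.83, adjusted p = 0.110), without the 1cm Ear (-1.02, adjusted p = 0.0659), and without the first leaf with L, the third leaf, the tip or the topmost leaf, each giving a difference just under 2-fold.

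Ribosome-bound TPM over total TPM, taken within a tissue, was compared between leaf and sinks over 19620 genes. The tables were scaled separately, so the height of a ratio has no meaning by itself and was read against the median gene of the same tissue. In the 8 leaves the log2 ratio of sut1 was 4.72 ± 0.761 (SD, n = 8), above that of 99.2% to 99.8% of genes, while the median gene was at 0.957. In the stem class the sut1 ratio exceeded that of 99.1% of genes, in the roots 96.8% and 98.7%, in the embryo 97.6% and in the endosperm 92.0%. The SAM libraries, with sut1 under 1 TPM in total RNA, were at 42.6% and 58.5%.

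The leaf minus sinks difference of this log2 ratio was called for 3 genes, at 2.02 for sut1 (SE 0.463, adjusted p = 0.00231), 1.34 for sweet13b (adjusted p = 0.0365) and -1.17 for sweet4c (adjusted p = 0.0264), beside 2.94% of genes called higher and 11.1% called lower. The sut1 call depended on the pseudocount: at 0.1 the difference was 0.74 (adjusted p = 0.284). Without any pseudocount, ribosome-bound TPM was 12.5 to 62.5 times total TPM for sut1 in leaves and 11.1 to 47.5 times in the 5 sinks with at least 1 TPM in both tables, ranges that overlapped. The sweet13b call was lost in 13 of 27 alternatives, among them without any 1 of 9 libraries (5mm Ear, both SAM, endosperm, the base and tip of the stage 2 leaf, the first leaf with N, the third leaf and the husk leaf), with adjusted p from 0.0502 to 0.0785. The sweet4c call was lost in 6 of 24, among them without the first leaf with L, the third leaf or the topmost leaf, with adjusted p from 0.0558 to 0.0632. Both sweet4c and mn1 passed the filter of this ratio through the total RNA of the embryo and endosperm alone. With either of these libraries left out they were not tested. Total sweet4c was at most 0.10 TPM in leaves, so its leaf ratio mostly restates its ribosome-bound level. For sweet13a the difference was 1.35 (adjusted p = 0.0724), called after quantile normalization (1.45, adjusted p = 0.0144) and without the first leaf with L, the V1 root or the stem library (adjusted p of at most 0.0494), and sweet13c (0.75) and mn1 (-0.26) were not called.

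As a description, levels of the leaf-side genes moved together over tissues that share the split between leaf and other organs. Over the 26 total RNA libraries Pearson's r of log2(TPM + 1) was 0.92 between sut1 and sweet13a, 0.97 between sweet13a and sweet13c, and 0.92 between sweet4c and mn1. The last value rests on the embryo and endosperm, as the other 24 libraries had at most 0.13 TPM of sweet4c and 0.88 TPM of mn1. Within the 11 leaves r was 0.89 between sut1 and sweet13a and 0.16 between sweet13b and sweet13c. Total and ribosome-bound levels of a gene had r from 0.86 to 0.97 over 20 tissues. Within the 8 leaves r was 0.49 for sut1, 0.32 for sweet13a, -0.21 for sweet13b and 0.57 for sweet13c. These r used TPM as listed, and the order of the leaves depends on the scaling. With Zm00001d019605 left out and the rest rescaled, ribosome-bound sut1 went from 574 to 1473 TPM in the first leaf with L. In the base of the stage 2 leaf it went from 1155 to 1176 TPM.

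Of 20342 gene models compared over the 26 total RNA libraries, those whose pattern was most like that of sut1 were Zm00001d008645, Zm00001d029388 and Zm00001d035390 (r = 0.96 each), and for sweet13a Zm00001d048611, Zm00001d011789 and Zm00001d008645 (r = 0.98 each). For sweet13b they were Zm00001d023258, Zm00001d031182 and sweet13a (r = 0.95 each), and for sweet13c sweet13a, Zm00001d036123 and Zm00001d018810 (r = 0.96 to 0.97). For sweet4c they were Zm00001d048896, Zm00001d049576 and Zm00001d019032 (r = 0.998 each, with the 2 kernel libraries far from the other 24), which in the 20 ribosome-bound libraries had r of 0.82 to 0.89. For mn1 they were Zm00001d035760, Zm00001d045937 and Zm00001d037436 (r = 0.95 to 0.96).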

How the data were processed

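Total and ribosome-bound RNA values were used as TPM, as deposited by the authors; 1 line of the total RNA table held 2 records and was split. The submitters' processing notes name the build B73 RefGen_v4 and, without roles, cutadapt 1.9.1, HISAT, SAMtools 1.9, StringTie, Bowtie 1.1.2 and RSEM. Organ classes were set from the tissue names in the labels. The 6 genes, the lists and the tests were chosen with earlier results of these data known, and the gene names came with that choice. All 6 genes are reported in every library, with the 3 gene models most like each.

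Log2(TPM + 1) was fitted with limma 3.58.1 (mean-variance trend, R 4.3.3) on entries that reached 1 TPM in 2 or more libraries, adjusted by Benjamini-Hochberg over all of them, and the scripts were tested on simulated data. A fold change on this scale understates that of low genes. The letters were paired by leaf position, as the labels give both letters at the same 4 positions. Other pseudocounts, filters, scalings and sets of libraries were tried. Of 50738 identifiers, 0 matched the 49888 genes of the reference table, so 0 of the 29 pathway symbols listed could be paired. Small RNA and circular RNA values were not used here.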

Additional observations from a re-analysis of the deposited data

Results flagged for a closer look

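Of 37 sets of 4 to 10 libraries examined for a library far from the rest, 8 had one. The nominal rate of about 1 in 20 holds for independent sets of normally distributed values. These sets share libraries and genes and hold TPM that are partly near 0, so the 8 cannot be set against that rate. In the inflorescences the 1cm Tassel stood above the others for sut1 in total RNA (0.13 TPM, next 0.05 TPM) and in ribosome-bound RNA (13.5 TPM, next 2.20 TPM), for the sut1 log2 ratio of ribosome-bound to total RNA (3.68, next 1.61) and for sweet13a in total RNA (0.29 TPM, next 0.06 TPM). Ribosome-bound sweet13a and sweet13b were also highest there among inflorescences, at 8.00 and 14.3 TPM, and the 1cm Tassel had the lowest listed sum of the inflorescences in total RNA, 165539 TPM; the part of that sum in these values was not tested. The 2mm Tassel stood apart for sweet4c in total RNA (0.13 TPM, next 0.06 TPM).

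In ribosome-bound RNA of leaves, the first leaf with the letter N stood apart for sweet13c (450 TPM, next 193 TPM) and the husk leaf for sweet4c (4.36 TPM, next 1.33 TPM). Among the 4 leaves with the letter N, the first leaf was lowest for sweet13b in total RNA (4.01 TPM, next 6.32 TPM).

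The leaf against sinks difference was not the same in both kinds of RNA for 3 genes. By the test of the log2 ratio it was larger in ribosome-bound RNA by 2.02 for sut1 and 1.34 for sweet13b, and sweet4c lay further below the sinks, at -1.17. All 3 calls were lost under some of the alternatives given with them above, and sweet4c passed the filter of the ratio through the kernel libraries alone.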

How the results depend on the processing

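Under the alternatives run, the 4 leaf-side genes kept direction and call against all sinks in both kinds of RNA, with log2 differences from 2.03 (sweet13b in total RNA, lowest) to 6.96 (sweet13a in total RNA, highest), and no called result changed sign. Differences that were not called did, among them total RNA sweet13b against root (-0.34 to 0.83), ribosome-bound sweet4c against root (-2.02 to 0.02) and SAM (-0.47 to 0.35), and sut1 (-0.12 to 0.18) and sweet13a (-0.20 to 0.02) between the letters. With each sink class at equal weight, which raises the embryo and endosperm, mn1 passed the threshold in total RNA (-1.12) and ribosome-bound RNA (-1.37). Of the values recomputed for single genes, 1299 kept their side of the threshold, 58 lost a call and 17 gained one.

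With a pseudocount of 0.1, entries called went from 10542 to 16357 (total RNA, leaf against sinks), 2762 to 1563 (ratio), 7434 to 11516 (total RNA, stem), 1087 to 2200 (letters) and 489 to 850 (tip against base). Genes called in the ratio went from 3 to 1 with that pseudocount, with no filter on low values and without embryo and endosperm; leaving out both the husk and the leaf base gave 4560 entries in the ratio. With no filter, 174 entries and 0 of the 6 genes were called for the letters and 18 entries for tip against base. Quantile normalization left 5923 of 10099 entries for total RNA against root, and it or the rescaling without the dominating entry called 3 genes in place of 1 in ribosome-bound RNA against root. Fitted without the replicate block of leaf position, the letters gave 420 entries and 0 genes.

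Leaving out 1 library or pair at a time gave 1 to 4 genes in the ratio, 6058 to 10496 entries and 1 to 3 genes for total RNA against root (6058 without the 6 DAS root), and 3418 to 7681 entries for total RNA against stem (3418 without the internode). In ribosome-bound RNA it gave 5752 to 14424 entries and 1 to 2 genes against root, and 6740 to 14572 entries and 2 to 5 genes against stem. Tip against base gave 0 to 199 entries, with a single tip and base left and their spread taken from the other positions. The cause of these changes was not tested, and each of these fits also had fewer libraries. TPM keep no depth, so the counting error of low values is unknown.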

Other observations

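In a deposited list of 365234 protein pairs over 25147 genes, with no score per pair, sweet13a had 42 partners, more than 86.5% of the listed genes, against a median of 7. The other sugar transporters listed were sweet13c and sweet4c with 7 partners each and sweet13b with 2, and neither sut1 nor mn1 had a pair (0 partners). No pair joined 2 of the 6 genes, and sweet13a and sweet13c shared 1 partner, Zm00001d045431. All pairs of these genes held them in the second column. The number of partners depends on how often a gene entered the screened pools, which was not measured here.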
